A study of Caenorhabditis elegans with 2 samples.

Results

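Small nucleolar RNA (snoRNA) genes that lie inside a host gene on the same strand are described here by the binding of SNPC-4 at their 5' ends. The members were the annotated snoRNA genes lying wholly within a protein-coding gene of the same strand. There were 183 of them, out of 346 annotated snoRNA genes and 46890 annotated nuclear genes, in 159 host genes. A member was counted as having a peak when a peak summit lay within 300 bp of its 5' end, and the strongest such peak was taken. Chromatin immunoprecipitation and sequencing (ChIP-seq) of eGFP-tagged SNPC-4 had been done in whole young adult Caenorhabditis elegans, with males and females pooled. All worms were of strain OP179, in which the transgene wgIs179 supplies the tagged protein on an unc-119(ed3) mutant background. They formed 1 group of 2 biological replicates. No control library and no worms without the tag were analysed here, and the tagged protein in whole worms cannot show which tissue a peak comes from. A weaker peak in all cells and a peak in fewer cells cannot be told apart.

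SNPC-4 belongs to SNAPc, which activates small nuclear RNA genes, and is its large subunit with the DNA-binding repeats. SNAPc binds a proximal sequence element upstream of these genes and brings RNA polymerase II or III to them. SnoRNAs guide chemical changes on ribosomal RNA, with C/D box snoRNAs guiding methylation and H/ACA box snoRNAs guiding pseudouridylation. A snoRNA inside an intron can be cut out of the host's transcript, or it can be transcribed from a promoter of its own. Genes for tRNA carry an internal promoter made of a box A and a box B, which the RNA polymerase III factor TFIIIC recognises.

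Most of the peaks at members fell beside a sequence like one of these promoters, and examples are shown first because the results turn on them. All are read 5' to 3' on the snoRNA's strand from the RefSeq genome on build WBcel235. The first set holds the 100 bases just upstream of 7 annotated snoRNA genes, and capitals mark the 22 bp match to the proximal sequence element. The matrix for this element was learned from 60 upstream sequences of small nuclear RNA and spliced leader RNA genes, none of them members. The first 6 genes had a peak and C02C6.13 had none in the authors' final list. Their windows are chrV:8500479-8500578 for ZK994.7, chrII:14018442-14018541 (minus strand) for F01D5.12, chrV:8349008-8349107 for C08D8.3, and chrII:11224082-11224181 for T06D8.11. Those on the minus strand are also chrIV:9511467-9511566 for smy-2, chrV:11175707-11175806 for T19C4.11 and chrX:15552488-15552587 for C02C6.13.
ZK994.7: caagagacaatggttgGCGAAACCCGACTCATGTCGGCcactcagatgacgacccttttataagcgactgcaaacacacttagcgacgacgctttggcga
F01D5.12: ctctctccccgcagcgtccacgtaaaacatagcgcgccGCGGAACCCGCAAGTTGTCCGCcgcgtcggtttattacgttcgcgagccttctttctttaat
C08D8.3: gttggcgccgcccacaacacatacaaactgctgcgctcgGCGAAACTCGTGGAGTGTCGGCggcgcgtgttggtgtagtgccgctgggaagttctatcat
T06D8.11: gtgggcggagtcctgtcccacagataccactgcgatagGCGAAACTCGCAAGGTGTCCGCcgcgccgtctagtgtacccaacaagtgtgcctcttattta
smy-2: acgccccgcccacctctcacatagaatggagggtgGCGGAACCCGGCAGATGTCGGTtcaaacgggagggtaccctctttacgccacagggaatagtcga
T19C4.11: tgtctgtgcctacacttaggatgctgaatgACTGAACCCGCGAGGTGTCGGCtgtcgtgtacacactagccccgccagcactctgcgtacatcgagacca
C02C6.13: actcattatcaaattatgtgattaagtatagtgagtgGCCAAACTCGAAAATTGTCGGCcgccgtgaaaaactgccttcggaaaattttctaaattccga

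The second set shows a leader that resembles the internal promoter of a tRNA gene. Each sequence holds the 100 bases upstream of the snoRNA and its first 20 bases, with the match to box A and then the match to box B in capitals. Both matrices, 11 bp each, were learned from 200 distinct sequences of annotated tRNA genes without regard to peaks. F38E11.14, F11A10.9, Y43F8C.22, ZK546.18 and C05D2.15 had a peak, while T24H7.6 and R166.7 had none in the final list. Windows on the minus strand are chrIV:9477680-9477799 for F38E11.14, chrV:19643168-19643287 for Y43F8C.22, chrII:4942500-4942619 for ZK546.18, chrIII:5602160-5602279 for C05D2.15 and chrII:10545310-10545429 for R166.7. Those on the plus strand are chrIV:12086609-12086728 for F11A10.9 and chrII:6248617-6248736 for T24H7.6.
F38E11.14: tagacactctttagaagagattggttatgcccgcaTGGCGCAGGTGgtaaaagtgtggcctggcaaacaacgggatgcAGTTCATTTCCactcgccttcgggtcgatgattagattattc
F11A10.9: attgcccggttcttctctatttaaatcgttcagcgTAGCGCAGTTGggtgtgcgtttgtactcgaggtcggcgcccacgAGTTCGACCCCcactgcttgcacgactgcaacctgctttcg
Y43F8C.22: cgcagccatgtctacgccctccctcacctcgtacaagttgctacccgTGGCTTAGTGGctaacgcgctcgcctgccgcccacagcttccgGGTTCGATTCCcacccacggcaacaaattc
ZK546.18: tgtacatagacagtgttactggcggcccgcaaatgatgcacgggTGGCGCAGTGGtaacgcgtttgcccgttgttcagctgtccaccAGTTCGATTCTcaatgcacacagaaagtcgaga
C05D2.15: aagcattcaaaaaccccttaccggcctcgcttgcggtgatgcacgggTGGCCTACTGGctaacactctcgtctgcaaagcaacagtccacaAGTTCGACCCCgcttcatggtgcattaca
T24H7.6: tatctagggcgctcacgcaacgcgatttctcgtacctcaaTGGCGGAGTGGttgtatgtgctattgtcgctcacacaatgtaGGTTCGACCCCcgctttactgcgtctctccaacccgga
R166.7: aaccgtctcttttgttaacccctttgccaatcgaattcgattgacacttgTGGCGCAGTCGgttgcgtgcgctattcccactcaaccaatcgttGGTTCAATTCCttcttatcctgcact

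Most members had no peak in the authors' final list, and those that had one fell into separate groups by strength. The authors deposited a relaxed list of peaks and background for each replicate and for the pooled reads, and an optimal list of the peaks that pass the irreproducible discovery rate, a measure of agreement between replicates. The optimal list held 1781 peaks. The relaxed list of replicate 1 held 20730, and those of replicate 2 and of the pooled reads held 30000 each. Read depth is unknown, so intervals below cover the counting of genes only. In the optimal list 25 of 183 members had a summit (13.7%, exact Clopper-Pearson interval 9.04 to 19.5), beside a background of 5.86% of all annotated genes and 4.32% of protein-coding genes. Each of the 25 had a peak of its own, whereas the 2748 of all annotated genes with a summit shared 1325 peaks. Their signal, the enrichment value of the authors' peak caller, had a median of 80.3 and ran from 34.0 to 1501, while the whole optimal list ran from 31.1 to 1801 with a median of 42.6. The median summit position was -43 bp from the snoRNA 5' end, where negative is upstream, and all 25 summits were upstream.

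In the relaxed lists the members stood near the share of all annotated genes and above that of protein-coding genes. The pooled relaxed list held a summit at 78 of 183 members (42.6%), against 43.8% of all annotated genes. There the 78 members had 75 distinct peaks, while the 20540 of all genes shared 11332. Replicate 1 held one at 62 members (33.9%), against 35.4% of all genes, and replicate 2 at 82 members (44.8%), against 43.6%. Protein-coding genes had one less often, at 26.5% in the pooled list, 20.1% in replicate 1 and 27.5% in replicate 2. Since so many genes had one, a summit found only in a relaxed list was not read as binding at a member. Whether it marks binding was not tested. In 76 members no list held a summit, among them Y65B4A.10 and Y65B4A.11 in eif-4A3, W10C8.17 in pop-1, Y71F9AL.24 in arx-1 and K09H9.11 in vbh-1.

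All of the 22 peaks nearer the snoRNA than the host's start had 1 of the 2 promoter sequences upstream, and the other 3 peaks were nearer the start of the host. The proximal sequence element stood upstream of 11 of these 22 members and the box A and box B leader upstream of the other 11. Of all 183 members, 12 carried the element (6.56%), which is 11 of the 25 with an optimal peak and 1 of the 158 without. The leader was carried by 28 members (15.3%), 11 with an optimal peak and 17 without. A sequence counted as a match when its score was among the highest 0.5% of those at all 46890 gene starts, searched over the same length. By this rule about 0.5% of all gene starts match each of the 2 sequences. Among protein-coding genes 0.13% held the element and 0.355% the leader. Both thresholds were set with the members' peaks known, so these counts describe the members and test nothing. On the log2 odds scale the element's threshold was 14.25 and the lowest score counted was 23.2. Y43F8C.22, a leader member, scored 14.24 on the other strand, just under the threshold, and the next score was 9.20. For the leader the threshold was 8.68, the lowest score counted was 11.8 and the highest not counted was 7.93.

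**Figure D1:**
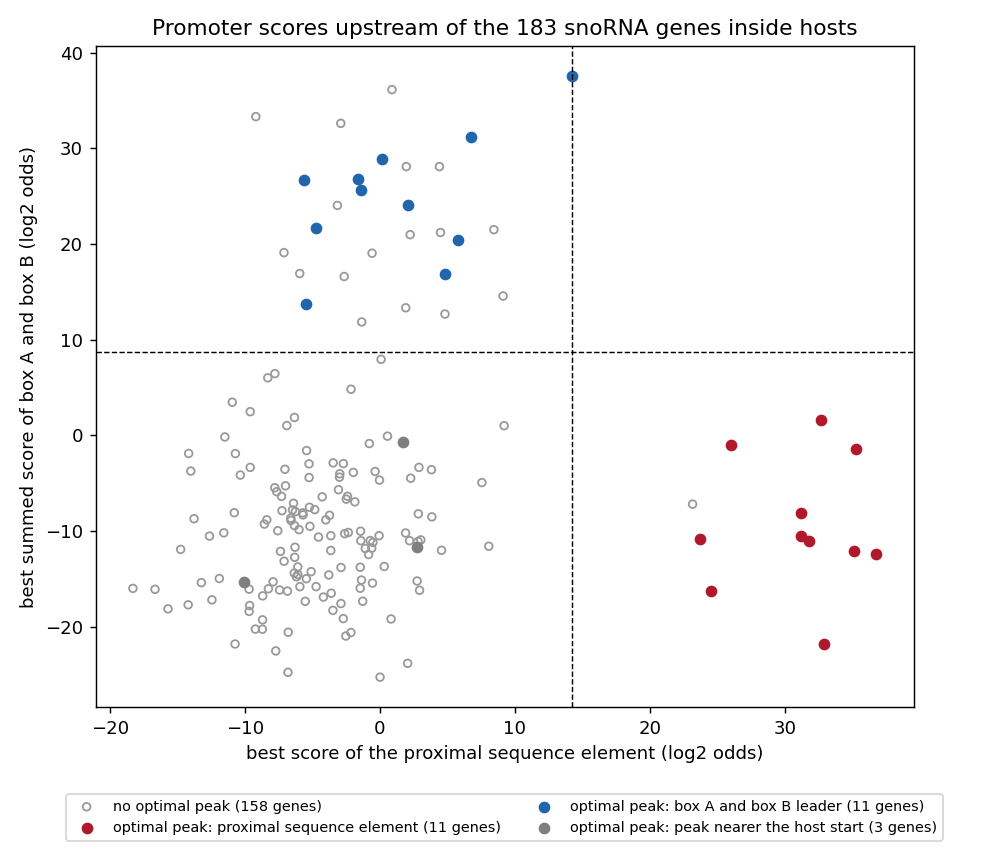
Best score of the proximal sequence element (x axis) against the best summed score of box A and box B (y axis), both in log2 odds, for each of the 183 snoRNA genes inside hosts; colours mark the kind of optimal peak and dashed lines the score thresholds. The 11 members with an element peak sit at the lower right with 1 open circle, C02C6.13, while the 11 with a leader peak share the upper left with 17 members without an optimal peak.

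Members with the proximal sequence element had the strongest peaks, and both replicates ranked them high. Their 11 signals in the optimal list ran from 190 to 1501 with a median of 673, and 7 of the 11 were among the 25 strongest peaks of the whole list. ZK994.7, in an intron of the peroxidasin gene pxn-1 on chromosome V, had a signal of 1501, the second highest of the list, with 415 in replicate 1 and 1105 in replicate 2. Its rank was 2 in replicate 1 and 3 in replicate 2. Signal values are on each list's own scale, so the ranks, not the values, compare the lists. Y37E3.20, in an intron of the phosphatidylethanolamine synthesis gene pcyt-2.1, stood at 962 in the optimal list. It had 318 (rank 7) in replicate 1 and 643 (rank 10) in replicate 2. F01D5.12, in F01D5.10 on chromosome II, stood at 827, with 238 (rank 21) in replicate 1 and 598 (rank 13) in replicate 2. All 3 were among the 25 strongest peaks of every list.

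A further 5 members with the element lay close together in signal. C08D8.3, in C08D8.1 on chromosome V, stood at 726, with 197 (rank 28) in replicate 1 and 525 (rank 19) in replicate 2. C16D9.11, in the receptor tyrosine kinase-like gene rol-3, stood at 712, with 242 (rank 20) in replicate 1 and 467 (rank 22) in replicate 2. W04D2.7, in the innexin gene inx-11, stood at 673, with 193 (rank 30) in replicate 1 and 481 (rank 20) in replicate 2. These 3 lay on chromosome V and stood at neighbouring ranks in the optimal list, 19, 22 and 23. T06D8.11, in plpr-1 on chromosome II, stood at 662, with 224 (rank 22) in replicate 1 and 444 (rank 24) in replicate 2. The gene smy-2, in C33A12.3 on chromosome IV, is a snoRNA gene here by its annotated class only. It stood at 513, with 160 (rank 39) in replicate 1 and 391 (rank 27) in replicate 2. No member had an optimal signal between 513 and 211.

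The remaining 3 members with the element had weaker peaks. F54F11.6, in the chemoreceptor-family gene sre-45 on chromosome II, stood at 211, with 54.1 (rank 152) in replicate 1 and 151 (rank 90) in replicate 2. T19C4.11, in gpa-1, which encodes a G protein alpha subunit, stood at 191, with 84.9 (rank 90) in replicate 1 and 111 (rank 125) in replicate 2. Y73B6A.14, in Y73B6A.1 on chromosome IV, stood at 190, with 55.1 (rank 148) in replicate 1 and 125 (rank 113) in replicate 2. These snoRNA genes were 157 to 178 bases long and the 8 with stronger peaks 67 to 119 bases, a split by signal made after the values were seen. Length did not follow signal further: C02C6.13, the element member without an optimal peak, is 91 bases long, and F59C6.15, an element carrier of 173 bases without a same-strand host, had an optimal peak of 942. All 11 ranked within the optimal list's length of 1781 in both replicates.

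**Figure D2:**
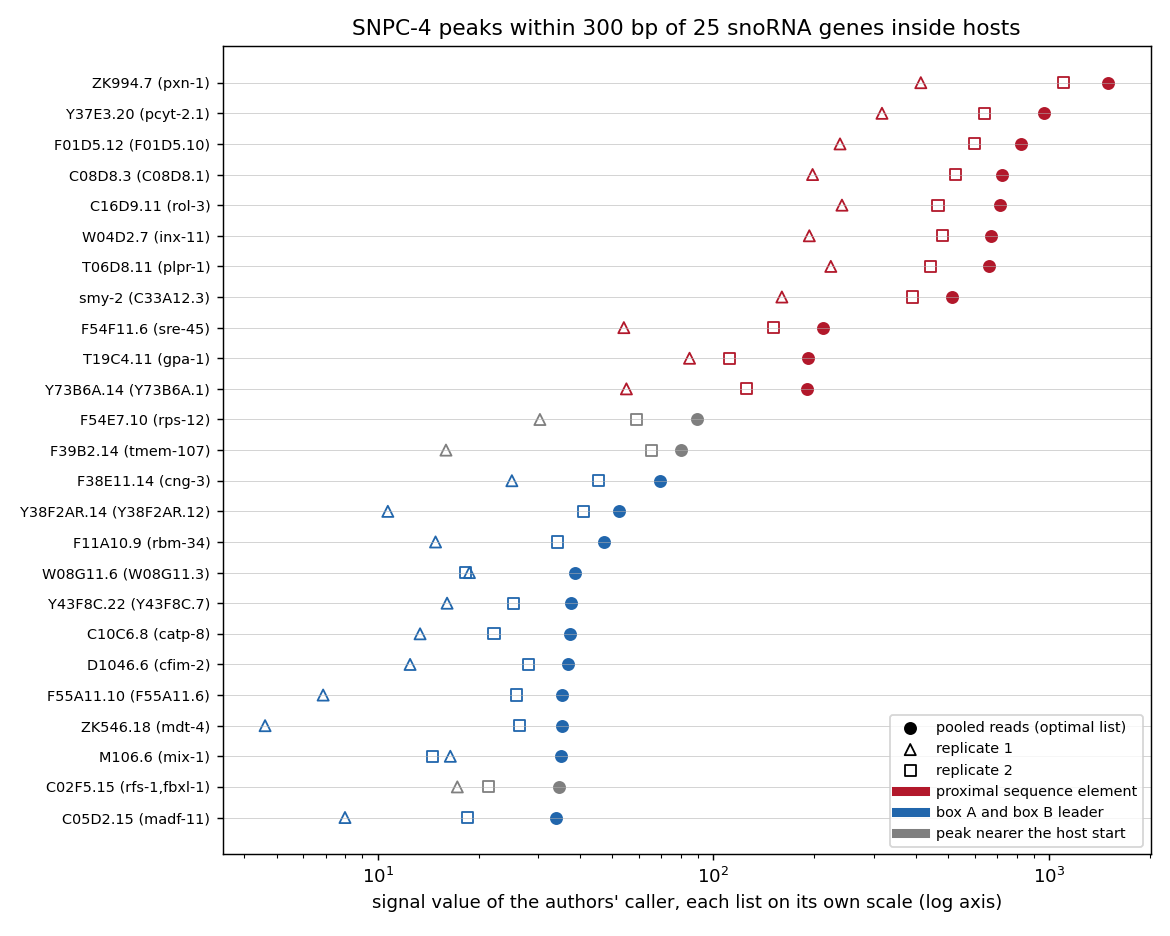
Signal value of the authors' caller (x axis, log scale, each list on its own scale) for the 25 snoRNA genes with an optimal peak, from strongest to weakest, with the host in brackets; filled circles are the pooled reads, triangles replicate 1 and squares replicate 2. The 11 members with the proximal sequence element (red) lie at 190 or above in the pooled reads, and the 11 with the leader (blue) lie at 69.5 or below.

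Positions of summit and element matched closely in this set. The element's centre lay between -73.5 and -49.5 bp from the snoRNA 5' end with a median of -51.5 bp, and the pooled summits lay between -58 and -28 bp with a median of -49 bp. In 7 of 11 members the summit fell within the element itself. ZK994.7 had the element farthest upstream, centred at -73.5 bp, and its summit at -38 bp lay outside it. The replicates' summits were a median of 8 bp apart and at most 20 bp apart in 10 of 11 members. The exception was Y73B6A.14, with summits at 37 bp in replicate 1 and at -10 bp in replicate 2. Across the 11 elements, 11 of the 22 positions held the same base in every gene, among them the AAC and the TGTC in the capitals above.

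The leader members had weak optimal peaks, and the replicates ranked them unevenly. Their 11 signals ran from 34.0 to 69.5 with a median of 37.4, so none overlapped the 11 members with the element. In snoRNA genes without a same-strand host the ranges did overlap. Element carriers there ran from 32.7 to 1801 and leader carriers from 31.3 to 256. The lowest was W07G1.23, with its summit at -257 bp, and the 256 was K02C4.7, which carried both sequences. F38E11.14, in the cyclic nucleotide-gated channel gene cng-3 on chromosome IV, stood highest at 69.5 (rank 372), with 25.1 (rank 433) in replicate 1 and 45.5 (rank 381) in replicate 2. Y38F2AR.14, in Y38F2AR.12 on chromosome IV, stood at 52.2 (rank 592), with 10.7 (rank 2673) in replicate 1 and 41.0 (rank 448) in replicate 2. Of the 2, only F38E11.14 ranked within the optimal length in both replicates. F11A10.9, in rbm-34, which encodes a protein with an RNA-binding motif, stood at 47.3, with 14.9 (rank 1421) in replicate 1 and 34.4 (rank 596) in replicate 2. W08G11.6, in W08G11.3 on chromosome V, stood at 38.8, with 18.8 (rank 855) in replicate 1 and 18.2 (rank 2298) in replicate 2. It was among the members ranked higher by replicate 1 than by replicate 2.

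Lower in the list the signals of the leader members lay within a few units of the optimal list's lowest value. Y43F8C.22, in Y43F8C.7, stood at 37.7, with 16.1 (rank 1192) in replicate 1 and 25.4 (rank 1150) in replicate 2. C10C6.8, in the cation-transporting ATPase gene catp-8, stood at 37.4, with 13.4 (rank 1769) in replicate 1 and 22.2 (rank 1524) in replicate 2. D1046.6, in cfim-2, which encodes a cleavage factor subunit for mRNA 3' ends, stood at 36.9, with 12.5 (rank 2028) in replicate 1 and 28.1 (rank 910) in replicate 2. The first 2 of these passed the optimal length in both replicates and D1046.6 passed it only in replicate 2. F55A11.10, in F55A11.6, stood at 35.4, with 6.88 (rank 5419) in replicate 1 and 25.9 (rank 1081) in replicate 2. ZK546.18, in the Mediator subunit gene mdt-4, stood at 35.3, with 4.62 (rank 9218) in replicate 1 and 26.4 (rank 1045) in replicate 2. Both ranked within the optimal length in replicate 2 only.

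At the foot of the list, M106.6 and C05D2.15 were the weakest leader members. M106.6, in mix-1, which encodes a condensin and dosage compensation subunit, stood at 35.2, with 16.5 (rank 1131) in replicate 1 and 14.6 (rank 3631) in replicate 2. C05D2.15, in the MADF domain gene madf-11 on chromosome III, stood at 34.0, the lowest of all 25, with 7.99 (rank 4377) in replicate 1 and 18.5 (rank 2241) in replicate 2. It ranked outside the optimal length in both replicates and was in the optimal list only through the pooled reads. Of the 11 leader members, 6 ranked within that length in replicate 1, 8 in replicate 2 and 4 in both.

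**Figure D3:**
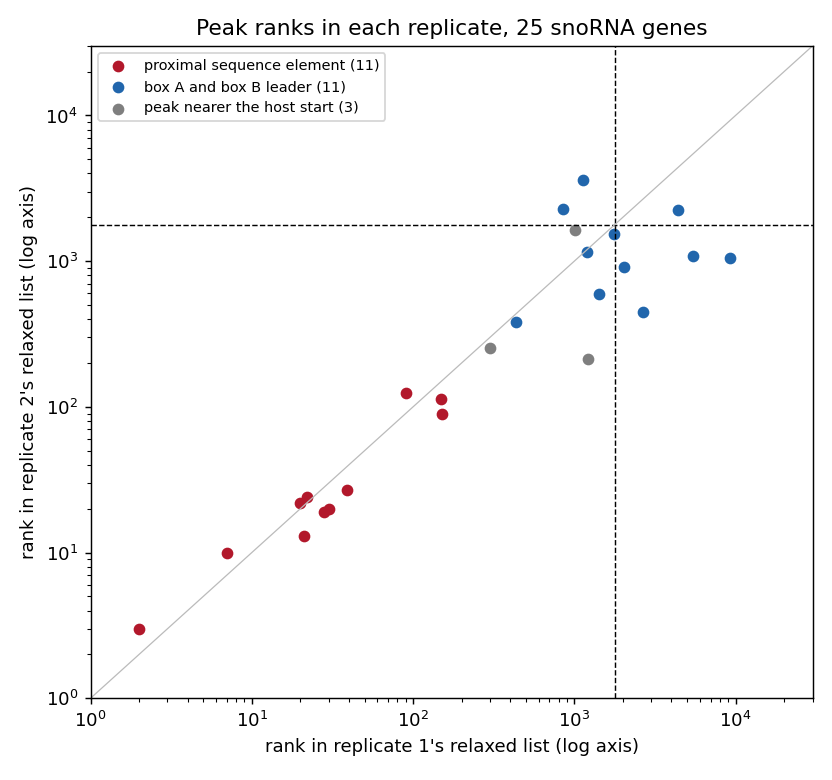
Rank of each of the 25 peaks in the relaxed list of replicate 1 (x axis) and of replicate 2 (y axis), both on log scales where a low rank is a strong peak; dashed lines mark the optimal list's length of 1781. The 11 element members (red) rank at 152 or better in both replicates, while 7 of the 11 leader members (blue) lie beyond a dashed line.

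Summits of the leader members lay nearer the snoRNA than those of the element members. Pooled summits ran from -62 to -6 bp with a median of -19 bp. Box A began at a median of -62 bp (range -66 to -45) and box B at a median of -15 bp (range -23 to -6), so the summits lay mostly between or on the boxes. In 9 of 11 members the summit fell between the start of box A and the end of box B, and in 3 members box B ran past the annotated 5' end. The replicates' summits were a median of 42 bp apart, and at most 20 bp apart in 3 of 11 members. W08G11.6 was the widest case, with summits at -18 bp in replicate 1 and at -147 bp in replicate 2. Of all 28 leaders, 3 overlapped an annotated pseudogene on the same strand, at D1046.6, which had an optimal peak, and at F19H8.6 and T08B2.13, which had none. None of the 28 overlapped an annotated tRNA gene.

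**Figure D4:**
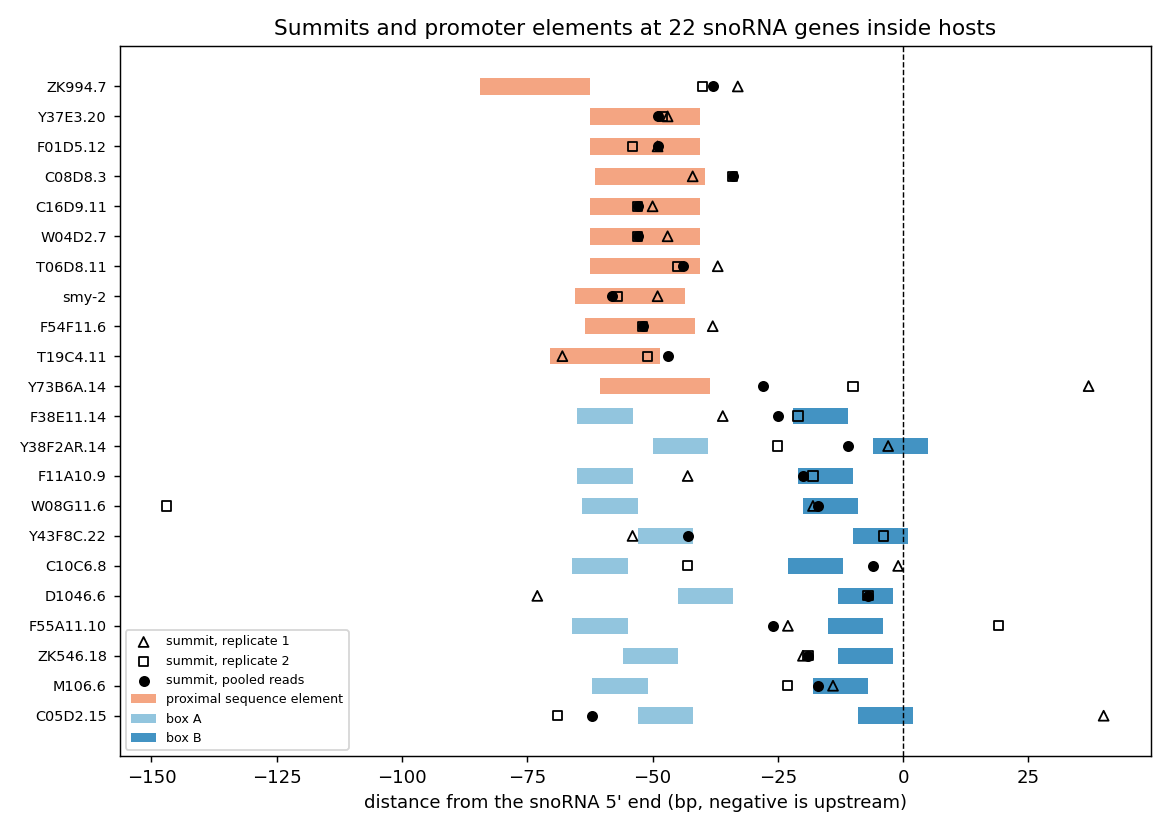
Distance in bp from the snoRNA 5' end (x axis, negative is upstream) of the summits and of the promoter sequences at the 22 snoRNA genes whose optimal peak was nearer the snoRNA than the host start; bars are the proximal sequence element, box A and box B, and symbols are the summits in the pooled reads and in each replicate. Summits sit on or close to the element, centred at a median of -51.5 bp, in the upper 11 genes, and they spread more widely around box B in the lower 11.

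The 3 peaks nearer the host's start belonged to members that lie close to it. F54E7.10, in the ribosomal protein gene rps-12 on chromosome III, had a peak of 89.3 (rank 254), with its summit at -248 bp from the snoRNA and 168 bp from the host's start. It had 30.4 in replicate 1 and 59.1 in replicate 2, and the nearest 5' end was that of ska-3, at 125 bp. F39B2.14, in tmem-107, which encodes a membrane protein of the ciliary transition zone, had a peak of 80.3 whose summit lay 59 bp from the host's start. It had 16.0 in replicate 1 and 65.5 in replicate 2. C02F5.15, in the overlapping hosts rfs-1 and fbxl-1, had a peak of 34.6 that lay 114 bp from the start of fbxl-1, with 17.3 in replicate 1 and 21.4 in replicate 2. All 3 ranked within the optimal length in both replicates, and neither promoter sequence stood upstream of any of them. F55A11.10 of the leader set also lay close to its host's start, which was 98 bp from the summit, while the summit was at -26 bp from the snoRNA.

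Other annotated starts lay near some of these summits. An annotated 5' end besides the snoRNA's was within 300 bp of the summit in 5 of the 11 element members and 5 of the 11 leader members. At the element members these were non-coding RNA genes, T06D8.13 and T06D8.17 at T06D8.11, F01D5.14 at F01D5.12, T19C4.17 at T19C4.11, W04D2.14 at W04D2.7 and Y37E3.29 at Y37E3.20. In 2 of the 5 the neighbour's 5' end was nearer the summit than the snoRNA's. T06D8.17 began 19 bp from the summit, which was at -44 bp from T06D8.11, and Y37E3.29 began 39 bp from the summit, which was at -49 bp from Y37E3.20. At the leader members they were non-coding RNA genes, the protein-coding genes wrt-3 at F38E11.14 and F55A11.11 at F55A11.10, and a pseudogene at D1046.6. The lists cannot tell apart binding for the snoRNA and binding for such a neighbour. None of the 25 members with an optimal peak shared a 36-mer of its upstream 200 bp with another place in the genome.

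C02C6.13 was the only member with the element and no optimal peak. It lies in an intron of lron-3, which encodes a leucine-rich repeat protein, on the X chromosome. Its pooled relaxed signal was 20.8 (rank 3869) with a summit at -36 bp, replicate 2 gave 15.7 (rank 3140), and replicate 1 held no summit. Its element scored lowest of the 12, at 23.2, and 2 of its upstream 36-mers were shared with another place. Of the 17 leader members without an optimal peak, 13 had a summit in the pooled relaxed list (76.5%), with signals from 4.43 to 30.5 and a median of 21.8. Of all genes 43.8% had one, with a median of 14.0, and the 17 were taken as members outside the optimal list, so these values describe them only. T24H7.6, in T24H7.2, was the strongest member outside the optimal list, at 30.5 (rank 1868) with its summit 18 bp inside the gene, and F19H8.6, in mltn-9, stood at 27.9 (rank 2266). T24H7.6 thus ranked just beyond the optimal list's length of 1781. No list held a summit at the leader members F22D6.16, T23B12.13 and D1054.17.

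Members with neither sequence and no optimal peak numbered 140. Of these, 39 had a summit in the pooled relaxed list (27.9%, median signal 6.95), beside 43.8% of all genes with a median of 14.0. Replicate 1 held a summit at 25 of them (17.9%), beside 35.4% of all genes, and replicate 2 at 47 (33.6%), beside 43.6%. Of protein-coding genes, 20.1% had one in replicate 1 and 27.5% in replicate 2. The strongest was F59G1.14, in the ceramide glucosyltransferase gene cgt-3, at 28.7 (rank 2125), with 7.94 in replicate 1 and 17.7 in replicate 2. Among all members, 2 had a peak within the optimal length in 1 replicate and no summit in the other. F25H2.14, in tct-1, which encodes the translationally controlled tumour protein homologue, had 21.0 (rank 1711) in replicate 2. Y43B11AR.7, in the ribosomal protein gene rps-4, had 13.6 (rank 1715) in replicate 1, with its summit 296 bp inside, near the edge of the window.

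Other features of the members, which the rule did not use, were set side by side. A run of TTTT, the stop signal of RNA polymerase III, stood within 30 bases after the 3' end of 27 of 28 leader members (96.4%) and 9 of 12 element members (75%). It stood there in 70 of 143 members with neither sequence (49%), near the 46.2% of all genes, while tRNA genes reached 98.9%. The run was searched on the gene's strand, and a match is a description of the sequence only. All 40 members with the element or the leader lay wholly in an intron, against 150 of all 183 members. Introns holding a member with an optimal peak had a median length of 700 bp in the element set and 284 bp in the leader set, against 390 bp for members with neither sequence and no optimal peak. The snoRNA began a median of 285 bp into the intron in the element set and 148 bp in the leader set, against 72.5 bp for those with neither.

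The box letters of the annotated snoRNAs also differed between the sets. Counting TGATGA near the 5' end with CTGA near the 3' end as C/D, and ACA followed by 3 bases at the 3' end as H/ACA, 6 of 183 members had C/D and 45 had H/ACA letters. The other 132 had neither, so the snoRNA class rests on the annotation. None of the 11 element members with an optimal peak had either kind of letters. This did not hold for snoRNA genes without a same-strand host. There some element carriers with an optimal peak had C/D letters, as at Y74C9A.6, C18A3.12, Y55F3BR.9 and C16D9.10, while most had neither. Of the 11 leader members with an optimal peak, 6 had H/ACA and 1 had C/D letters, and of the 17 without, 6 had H/ACA and 3 had C/D letters. Exact letters miss boxes that vary, and the count was not compared with a curated class. By chromosome, 5 of the 11 leader members with an optimal peak lay on chromosome IV, whereas none of the 17 without did, a split picked out after the values were seen.

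The snoRNA genes without a same-strand host were the class most like the members. In the optimal list 25 of 183 members had a summit (13.7%), against 59 of 163 snoRNA genes without such a host (36.2%, interval 28.8 to 44.1), and no test of the difference was made. Of the 163, 14 of 33 inside an opposite-strand host (42.4%) and 45 of 130 inside no protein-coding gene (34.6%) had one. Carriers of the element were 12 of 183 members (6.56%, interval 3.43 to 11.2), against 27 of 163 (16.6%, interval 11.2 to 23.2), and 11 of the 12 members and 25 of the 27 others had an optimal peak. Signals at element carriers ran from 190 to 1501 in members (median 673), against 32.7 to 1801 in the others (median 270). The leader was carried by 28 of 183 members (15.3%, interval 10.4 to 21.3), against 34 of 163 (20.9%, interval 14.9 to 27.9), with an optimal peak at 11 of the 28 members and 19 of the 34 others. K02C4.7, without a same-strand host and with a peak of 256, carried both sequences and is counted under each. Medians at leader carriers were 37.4 in members and 41.5 in the others, whose signals ran from 31.3 to 256. Of snoRNA genes with neither sequence and no same-strand host, 16 of 103 had an optimal peak. Some of these summits were nearer another gene's 5' end, as at F37F2.4, K07C10.2, W06H8.17 and D2021.6. M03D4.78, with a peak of 405, scored 14.23 for the element, just under the threshold of 14.25. In members the only peaks without either sequence were the 3 nearer the host's start. Peaks of genes without such a host were not sorted by another start, so these counts are not alike. For tRNA genes, 119 of 612 (19.4%) had an optimal peak, with a median summit at 0 bp from the 5' end.

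The host genes were also looked at by their own starts. Here a start is the outermost 5' end of the host gene, and starts of its other transcripts were not used. An optimal summit lay within 300 bp of the start of 28 of 159 hosts (17.6%, interval 12 to 24.4), beside the 4.32% of protein-coding genes. Signals there ran from 31.6 to 176 with a median of 49.9, and the highest was at cdc-48.1, a gene for an AAA ATPase. None of the 159 host starts held the element or the leader (exact interval up to 2.29% for each). Among protein-coding genes 0.13% held the element and 0.355% the leader, so this absence is near the background. Of the hosts whose snoRNA had an element or leader peak, 1 of 22 had an optimal summit at its own start, mix-1 at 33.7. By this rule F55A11.6 was not counted, although a transcript start of it lay within 300 bp of the summit at F55A11.10. Of 13 hosts for ribosomal proteins, 7 had an optimal summit at their own start, with signals from 33.3 to 104, and their 19 members held neither sequence and no peak nearer the snoRNA. This grouping was made after the values were seen.

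Members sharing a host added no peak at a snoRNA. The 23 hosts that hold 2 or more members are nol-56 with 4, top-2 and rpl-6 with 3 each, and air-1, akir-1, cdc-48.1, eef-1G, eif-4A3, F58D5.5, frm-7, klp-19, lin-14, mig-39, prp-8, rpl-7A, rpl-15, rps-12, rps-29, sea-2, ssl-1, ubl-1, ulp-4 and Y37E3.8 with 2 each. Of their 50 members, 1 had an optimal peak, F54E7.10 in rps-12, and 1 carried the leader, C51F7.3 in frm-7. The summit at F54E7.10 was nearer the starts of ska-3 and rps-12 than that of the snoRNA. Of all genes 5.86% had an optimal peak and 0.501% carried the leader. Of all 183 members 13.7% had such a peak and 15.3% carried the leader. Counts this small do not set the 50 apart from all genes, and no test was made. The 3 members in top-2, the topoisomerase II gene, had no summit in any list. Those in nol-56 had none in the pooled list or replicate 1, and 3 of the 4 had weak summits of 5.30 to 6.59 in replicate 2.

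Genes for the proteins that bind snoRNAs were looked at as the rest of the pathway. Of 8 such genes, 4 had an optimal summit within 300 bp of their 5' end, beside the 4.32% of protein-coding genes. These were fib-1 (fibrillarin, the methyltransferase) at 56.2, nol-56 at 39.3 and snu-13 at 60.1 of the C/D box particle, and dkc-1 (dyskerin, the pseudouridine synthase) at 39.3 of the H/ACA box particle. Their summits lay at -82 bp at fib-1, -258 bp at nol-56, -284 bp at snu-13 and -236 bp at dkc-1. In the replicates fib-1 had 8.77 in replicate 1 and 44.0 in replicate 2, and snu-13 had 16.8 in replicate 1 and 42.5 in replicate 2. The gene nol-58 had a summit only in replicate 2 (17.2), and garr-1, Y48A6B.3 and nola-3 had none in any list.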

How the data were processed

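Per the labels, eGFP-SNPC-4 ChIP-seq was done in 1 group of 2 biological replicates. The authors deposited peak lists in narrowPeak order on 2 builds, and the ce11 lists were used because the annotation is on WBcel235. Each deposited peak has the authors' signal value, a −log10 q value and a summit. The deposited −log10 q value does not vary within the optimal list and ranked nothing. The deposited signal was used within a list, and ranks were set side by side between lists. Per the labels' files the peaks were called against a control; the aligner, peak caller and threshold are not given in the sources used here. Depth per sample is unknown, so its effect on precision cannot be given.

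Genes came from the Ensembl release 115 annotation. With 1 group no test between samples was possible, so results are counts with 95% exact Clopper-Pearson intervals, medians and ranges. A summit nearer any annotated start of the host than the snoRNA was counted to the host. Sequences were scored with Python 3.11.15 and numpy 2.4.6. The 22 bp element was searched on both strands from 120 bp upstream to the 5' end. Its matrix came from genes chosen for their peaks, so a share at members is independent of it but not of the same assay. Box A and box B were searched on the gene's strand from 120 bp upstream to 20 bp inside, 25 to 70 bp apart. Scripts were tested on simulated data.

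The members and lists were chosen with earlier results of these data known. The leader was added after reading sequences upstream of members with peaks. The share of gene starts that sets the score thresholds was first 1.5%, then 1%, and was set to 0.5% after members' scores and peaks had been seen. Members named with full values were the 15 with the strongest peaks, those nearer a host start, the weakest 3, the 3 strongest outside the optimal list, and those with a peak in only 1 replicate. The other members with a peak were added after their values were seen.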

Additional observations from a re-analysis of the deposited data

How the results depend on the processing

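Counts of members with an optimal peak (25), and of those nearer the snoRNA (22), were 16 and 14 among the stronger 50% of optimal peaks, and 78 and 72 in the pooled relaxed list. Within 500 bp they were 35 and 23, within 150 bp 24 and 22, and for peaks matched in both replicates 18 and 15. From 1 replicate's list cut at the optimal length they were 21 to 25 and 18 to 22. The median signal (80.3) was 74.9 within 150 bp, 55.1 within 500 bp, 362 among the stronger 50%, 16.7 in the pooled relaxed list, 201 for peaks matched in both replicates, and 54.1 to 59.1 in single replicates, which have scales of their own. The median offset (-43 bp) was -40.5 within 150 bp and for members wholly in an intron, -49 within 500 bp, -48 among the stronger 50% and for matched peaks, -22.5 in the pooled relaxed list, and -43 to -40 in single replicates. The 11 element members with a peak were 11 or 12 under every setting tried. The 1 without a peak became 0 in the pooled relaxed list and 0 among members with unique upstream sequence. At the score thresholds of 1% and 1.5% of gene starts, added after seeing the data, it became 3 and 6. The count of leader members with a peak (11) rests on the lists used: it was 3 among the stronger 50%, 4 for matched peaks, 24 in the pooled relaxed list, 6 without replicate 2 and 10 without replicate 1. Leader members without a peak (17) became 4 in the pooled relaxed list and 20 and 21 at the score thresholds of 1% and 1.5%. Why these counts moved was not tested, beyond the lists' own lengths. No paired analysis was possible because there is 1 group and no test between samples. Depth is unknown, so a member without a peak may be below what these libraries could detect.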
